A study of Mus musculus with 20 samples.

Results

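The 8 control libraries of a mouse RNA-seq series of 20 libraries were described here: 5 from the set labelled acute and 3 from the set labelled prolonged. They were chosen by their label alone, and the values of both sets were joined by gene symbol. All 20 libraries came from jejunal epithelial cells of female mice, taken from crypts as the series design has it. The controls carry the genotype Control/WT, and the other 12 libraries (7 acute, 5 prolonged) carry the Kdm6a/Kdm6b knockout, called DKO below. Kdm6a and Kdm6b encode demethylases that remove methyl groups from lysine 27 of histone H3. The label puts acute libraries 7 days and prolonged libraries 5 months after ablation, so the prolonged mice were sampled at a later time. The sources used here name neither the recombinase that drove the ablation nor any inducing agent given to control mice. Every difference below is prolonged minus acute. Time, age and the set in which a library was made go together in this design and cannot be told apart. The prolonged set carries 8 short library tags, and all 8 occur among the 12 tags of the acute set, where other animals carry them. No tag is shared between acute and prolonged controls. The labels call the libraries biological replicates, and acute ones carry an animal number each.

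The crypt of the small intestine holds stem cells marked by Lgr5, dividing progenitors, and Paneth cells that secrete lysozyme and defensins. Progenitors move up the villus as absorptive cells, whose brush border carries digestive hydrolases and transporters, or as goblet, enteroendocrine and tuft cells. Lymphocytes lie between epithelial cells, while fibroblasts, vessels and macrophages lie in the lamina propria beneath and are only removed in part when epithelium is detached. In bulk RNA, fewer cells of a type and less RNA per cell cannot be told apart.

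The controls of both sets carried a strong epithelial signature. Epcam, an epithelial adhesion molecule, lay at 1780, 1860, 1850, 1810 and 1840 CPM (a gene's reads as a share of its library's reads in genes, on 1 common scale) in acute controls 1 to 5 and at 1980, 1930 and 1940 CPM in prolonged controls 1 to 3. Its groups did not overlap, yet it did not pass the test (log2 difference 0.09 ± 0.08 SE, limma adjusted p = 0.449). Of 12 epithelial markers, 1 was called (Cdx1, an intestinal transcription factor, with a difference of -0.22), and 6 of the 8 fits that left out 1 control lost that call (all but acute 2 and 5, adjusted p up to 0.144). Vil1, which encodes the microvillus protein villin, averaged 2280 and 2750 CPM, and Hnf4a, an enterocyte transcription factor, 1160 and 1090 CPM. Kdm6a averaged 66.1 ± 6.62 CPM (SD, n = 5) in acute and 76.2 ± 5.95 CPM (SD, n = 3) in prolonged controls, and Kdm6b 101 ± 6.71 and 102 ± 3.85 CPM. Neither gene was called between control sets. Xist lay between 802 and 1190 CPM in the 8 controls, as the female label has it.

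The reads of the controls were led by products of absorptive, Paneth and goblet cells. Ranked by the mean of both group means, the leading 12 genes included Pigr (the antibody transporter), Apoa4, Apoa1 and Apob (apolipoproteins), Anpep (a brush border aminopeptidase), Rn45s (ribosomal RNA precursor), Reg3b (an antibacterial lectin), Dmbt1 (a mucosal scavenger protein), Fcgbp (a mucus protein), Lyz1 (Paneth cell lysozyme) and Eef1a1 (a translation factor). Together they took 5.65 to 6.92% of the reads in acute controls and 6.4 to 6.85% in prolonged controls. The difference between the means of 6.22% and 6.63% did not pass an exact permutation test (two-sided p = 0.25, with 56 ways to assign the labels and a smallest possible p of 0.0179). CPM is a share of reads and grows with transcript length, so it ranks reads rather than molecules. Of the 12, Apob, Fcgbp and Lyz1 were higher and Rn45s was lower in prolonged controls by the test used below. Rn45s fell from 6430 ± 456 CPM (n = 5) to 3130 ± 74.5 CPM (n = 3), a log2 difference of -1.03 ± 0.11 (adjusted p = 0.00162). Libraries were selected for poly(A) RNA, and Rn45s is not a messenger RNA. The largest spread among the 12 was in Reg3b, which lay at 12400, 2890, 3780, 6070 and 7340 CPM in acute controls and at 2740, 3070 and 2700 CPM in prolonged controls. It was not called (adjusted p = 0.111, and 0.0347 without acute control 2).

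Of 13574 genes tested, 371 were higher (2.73%) and 1060 were lower (7.81%) in prolonged than in acute controls, 10.5% in all. The test was limma on log2(CPM + 1), and genes with a Benjamini-Hochberg adjusted p under 0.05 were called. The excess of lower genes turned on the scaling: with TMM factors, which equalise the bulk of genes between libraries, 723 genes were higher and 641 lower. The median difference over all genes was -0.07 as deposited and 0 with TMM factors. In 2867 genes, 21.1% of those tested, the 5 and the 3 values did not overlap. Both counts of calls also moved by more than 1.5 times when 1 library was left out. Without prolonged control 3, the shallowest library, 99 were higher and 231 lower. The counts were 123 and 232 without prolonged control 2, 213 and 669 without prolonged control 1, and 231 and 557 without acute control 4. Without acute control 3, 567 genes were lower. On the leading principal component of the 8 controls, which held 47.3% of the variance, prolonged controls lay between 16.2 and 26.3. Acute controls 1 to 4 lay between -26.7 and -10.9, and acute control 5 lay nearest the prolonged ones at 5.1.

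The same contrast was measured in the DKO libraries, which share no sample with the controls. They come from the same acute and prolonged sets, so time, age and set go together there as well. A shared direction in both genotypes thus cannot tell time, age and set apart. Among the DKO libraries, 1232 genes were higher (9.08%) and 1215 lower (8.95%) in the prolonged set, 18.0% in all. Of the 1431 genes called in controls, 1406 (98.3%) differed in the same direction in DKO, against 73.1% of all genes tested. Of these 1431, 869 (60.7%) were also called in DKO, and 0 were called the other way. The plot of control against DKO differences shows Fn1 and C3, the lowest genes in controls, far down in both genotypes. A limma interaction term over all 20 libraries found 0 of 13574 genes whose difference itself depended on genotype. At an unadjusted p under 0.05 there were 621 such genes (4.57%), and edgeR's quasi-likelihood test also called 0.

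**Figure D1:**
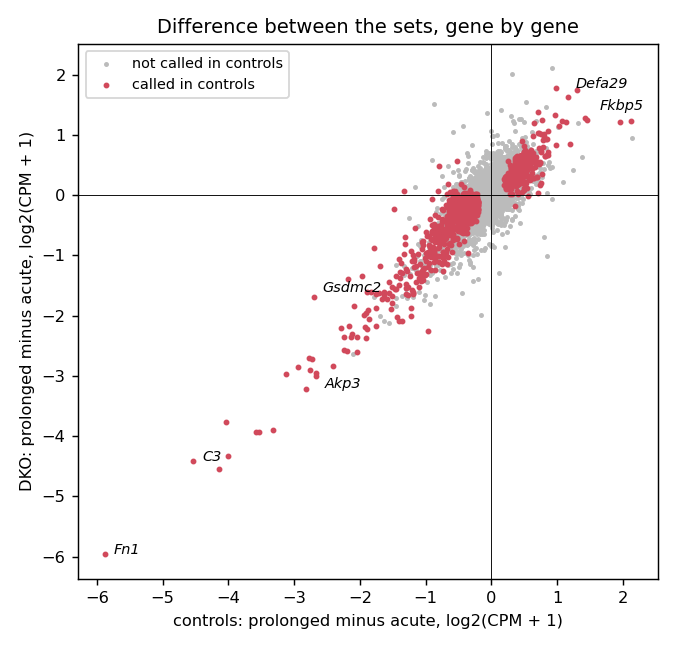
Each point is 1 of 13574 genes, with the prolonged minus acute difference of log2(CPM + 1) in 8 control libraries on the x axis and in 12 DKO libraries on the y axis; red points are the 1431 genes called in controls. Of the red points, 1406 have the same sign on both axes, and Fn1 lies lowest on both.

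Differences followed transcript length. Genes were split into 10 equal groups by the length of their longest annotated transcript. In the shortest group (median 996 bases) the median difference was -0.20, with 4 genes higher and 248 lower. In the longest group (median 8174 bases) it was 0.12, with 192 higher and 28 lower. DKO medians ran from -0.10 to 0.18 over the same groups. The Spearman correlation between length and difference across the 13285 genes with a length was 0.367 in controls and 0.326 in DKO, a description across genes that share libraries. Per library, the median of the longest group minus that of the shortest, each gene centred on its mean over the libraries, ran from -0.214 to -0.068 in the 5 acute controls and from 0.144 to 0.251 in the 3 prolonged controls. These values did not overlap (difference of means 0.325, exact permutation p = 0.0179, the smallest possible). Acute DKO libraries ran from -0.162 to -0.065 and prolonged DKO libraries from 0.086 to 0.283. When each library was centred within bins of transcript length, 230 genes were higher (1.69%) and 304 lower (2.24%), 3.93% in all, and 445 of the 1431 calls remained. That fit is called length-centred below, and it was chosen after the length trend was seen.

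**Figure D2:**
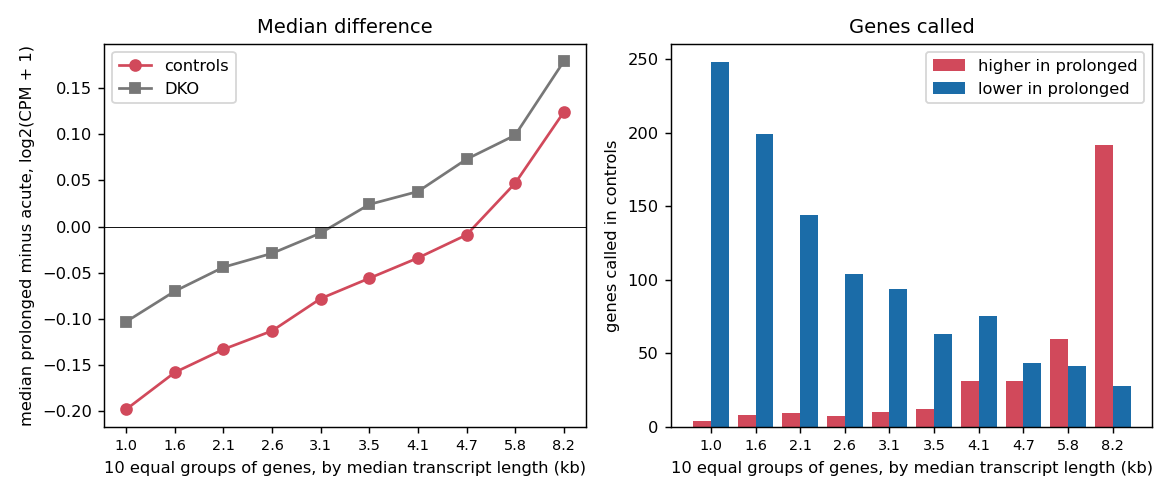
Left, the median prolonged minus acute difference of log2(CPM + 1) in 10 equal groups of genes ordered by transcript length, for controls and DKO; right, the genes called higher or lower in controls in each group. In controls the median rises from -0.198 in the shortest to 0.124 in the longest group, and lower calls fall from 248 to 28.

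Genes of connective tissue and macrophages showed the largest differences, and all 10 of the largest falls were also lower in DKO. Fn1, which encodes the matrix protein fibronectin, lay at 209, 378, 146, 78.8 and 12.2 CPM in acute controls 1 to 5 and at 0.43, 0.75 and 1.21 CPM in prolonged controls 1 to 3. Its difference of -5.88 ± 0.83 (adjusted p = 0.0036) was the largest of all called genes that the naming rule covers. C3, the central complement component, lay at 150, 237, 188, 176 and 85.4 CPM in acute controls and at 5.87, 4.87 and 7.16 CPM in prolonged controls (-4.53 ± 0.26, adjusted p = 3.35e-05). Acute control 5 was lowest of the acute controls in both genes and still above every prolonged control. Lyz2, lysozyme of macrophages, fell by 4.03 ± 0.74 on the log2 scale (adjusted p = 0.0104). Arg1, an arginase of activated macrophages, had a difference of -3.58 (adjusted p = 0.0163). The calls of Lyz2 and Arg1 were lost without prolonged control 2 or 3, with adjusted p up to 0.0545 and 0.0771. Fn1 lay below 0.5 CPM in prolonged control 1 and Arg1 in prolonged control 3. Neither would thus have passed the filter on low values, 0.5 CPM in 3 controls, through prolonged controls alone. With limma-voom on whole reads Fn1, Lyz2 and Arg1 were not called (adjusted p = 0.248, 0.223 and 0.306).

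Collagens moved with fibronectin. Col3a1 lay at 44.0, 62.0, 27.3, 18.1 and 7.49 CPM in acute controls and at 0.345, 0.229 and 1.01 CPM in prolonged controls (-4.15 ± 0.52, adjusted p = 0.00256). Col1a2 and Col1a1 had differences of -4.01 and -3.32, Sparc, a matrix-associated protein, -3.53, and Dcn, the proteoglycan decorin, -2.95. All of them stayed called in each fit that left out 1 control. With limma-voom Col3a1, Col1a2 and Col1a1 were not called (adjusted p = 0.123, 0.109 and 0.111). Fn1, Col3a1, Col1a2, Col1a1, Sparc, Lyz2 and Arg1 put the acute controls in 1 order: 2 was highest, then 1, 3, 4 and 5. The other genes of the 10 largest falls, Dcn, C3 and Slpi, did not follow it. Dcn lay at 16.5 CPM in acute control 3 and at 13.3 CPM in acute control 1. C3 was higher in acute controls 3 and 4 (188 and 176 CPM) than in 1 (150 CPM), and Slpi was highest in acute control 4. Slpi, a protease inhibitor of mucosal surfaces, lay between 6.21 and 15.0 CPM in acute and between 0.259 and 0.504 CPM in prolonged controls (-3.12 ± 0.24, adjusted p = 0.000364). Saa3, an acute-phase protein, lay between 2.71 and 12.1 CPM and between 0.0863 and 0.115 CPM (-2.82, adjusted p = 0.00245). Saa3 thus passed the filter on low values through acute controls alone. Slpi, Col3a1 and Col1a2 reached 0.5 CPM in prolonged control 3 only and would not have passed on prolonged controls alone.

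Over whole marker lists, 9 of 12 tested stromal and endothelial genes were lower and 0 higher, against 7.81% lower among all genes, with a median of -1.46 against -0.07. Sparc and Col1a1 lay below 0.5 CPM in every prolonged control and passed the filter on low values through acute controls alone. Such genes can only add to the lower count. Col3a1 and Col1a2 reached 0.5 CPM in prolonged control 3 only, so they would not have passed on prolonged controls alone. This limit applies to their calls too. The list held 17 genes. Their summed level ran from 55.4 to 242 CPM in acute controls and from 20.7 to 23.6 CPM in prolonged controls. Of 12 tested macrophage and other myeloid genes, 5 were lower and 0 higher (7.81% of all genes lower; median -1.29), and their summed level ran from 48.7 to 321 CPM and from 33.6 to 48.8 CPM. Without prolonged control 2 or 3, 7 stromal genes but 0 myeloid genes were called lower, against 232 and 231 of all genes. With edgeR, 9 and 7 were lower, against 655 of all genes with TMM and 648 with relative log expression factors. Csf1r, the macrophage growth factor receptor, averaged 9.81 ± 6.76 and 1.01 ± 1.0 CPM, and C1qb, a complement subunit made by macrophages, 6.65 ± 5.24 and 0.614 ± 0.522 CPM. Among prolonged controls, Csf1r and C1qb reached 0.5 CPM in control 1 only. They would not have passed the filter on prolonged controls alone, so the limit on the lower count applies to them too. Both were called, and both calls were lost without prolonged control 2 or 3 (adjusted p up to 0.0904 and 0.0914) and with limma-voom (0.137 and 0.115). Their part in the other differences was not tested.

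Genes of intraepithelial lymphocytes overlapped between the sets. Ptprc, the pan-leukocyte gene, lay at 58.4, 42.8, 77.8, 60.9 and 37.5 CPM in acute controls and at 66.9, 59.4 and 33.0 CPM in prolonged controls. Cd3e, a T cell receptor subunit, lay between 17.1 and 37.1 CPM and between 11.5 and 29.4 CPM. The groups overlapped in both genes. Of 16 tested T cell genes, limma, edgeR and DESeq2 called 0. At an unadjusted p under 0.05, 4 were lower, against 3768 of all 13574 genes in either direction. The median of the T cell genes was -0.36. Their summed level was 583 to 1010 CPM in acute and 386 to 816 CPM in prolonged controls. B and plasma cell genes summed to 6.6 to 27.3 and 4.9 to 11.5 CPM, and enteric nerve genes to 4.3 to 5 and 2.9 to 5.1 CPM. Of 7 red cell genes, only Alas2 had values in both sets, between 0.265 and 1.01 CPM in controls. No haemoglobin gene was thus covered.

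**Figure D3:**
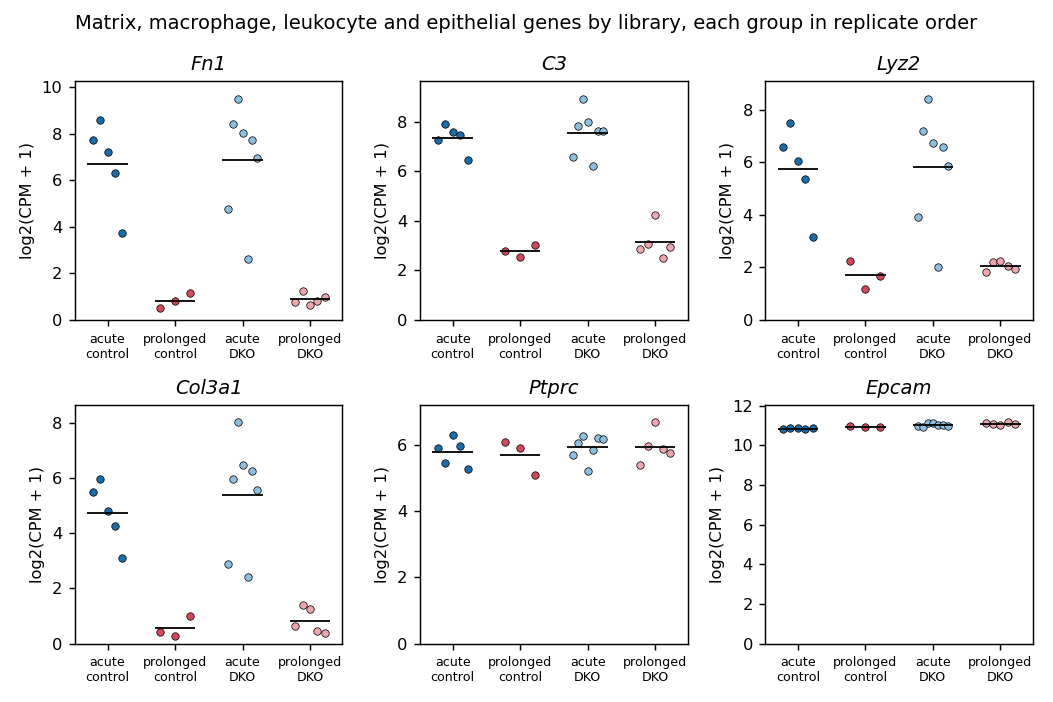
Levels of 6 genes as log2(CPM + 1) in every library (points in replicate order) of the 4 groups, with the group mean as a line. Fn1, C3, Lyz2 and Col3a1 are lower in every prolonged control than in every acute control, while Ptprc overlaps and Epcam lies between 1780 and 1980 CPM in the 8 controls.

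The spread of the stromal genes within acute DKO libraries was wide as well. Fn1 lay at 25.9 CPM in acute DKO 1 and at 5.07 CPM in acute DKO 5, against 723 CPM in acute DKO 3 and 124 to 337 CPM in the other 4. All 5 prolonged DKO libraries lay between 0.55 and 1.36 CPM. The acute libraries of both genotypes thus covered a wide range, and the prolonged ones were low throughout.

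Among epithelial products, gasdermin C genes fell. Gasdermins form membrane pores, and the C members are expressed in intestinal epithelium. These genes were picked after their values were seen. Gsdmc2 lay at 39.0, 77.3, 63.3, 32.9 and 23.4 CPM in acute controls and at 3.45, 10.3 and 5.24 CPM in prolonged controls (-2.70 ± 0.38, adjusted p = 0.00354). Gsdmc4 averaged 102 ± 61.2 and 23.6 ± 11.5 CPM, and Gsdmc3 13.3 ± 7.8 and 1.91 ± 1.13 CPM, with differences of -1.96 and -2.19. The Gsdmc2 call held in each fit that left out 1 control. Without prolonged control 3 the calls of Gsdmc3 and Gsdmc4 were lost (adjusted p = 0.0515 and 0.0898), and that of Gsdmc4 also without prolonged control 1. Gsdmc3 was also lost with limma-voom (0.0629). The 3 genes are near-identical copies, so how reads were divided among them is uncertain. In DKO, Gsdmc2 lay at 37.6 CPM in acute DKO 4 and at 5.66 to 13 CPM in the other 6 acute libraries, against 2.1 to 3.67 CPM in prolonged ones.

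Of 8 tested genes linked to a regenerating or fetal-like epithelium, 4 were lower and 0 higher, against 7.81% lower among all genes, with a median of -0.72. Anxa1, an annexin, averaged 4.2 ± 1.81 and 0.12 ± 0.16 CPM (-2.14, adjusted p = 0.00306), and Msln, mesothelin, 3.48 ± 0.697 and 0.254 ± 0.139 CPM (-1.83, adjusted p = 0.000387). Anxa1 and Msln lay below 0.5 CPM in every prolonged control and passed the filter on low values through acute controls alone. Such genes can only add to the lower count. Clu, clusterin, had a difference of -1.70 and Krt7, a keratin, one of -0.44. Clu lay below 0.5 CPM in prolonged control 3 and would not have passed the filter on prolonged controls alone. The calls of Clu and Krt7 were lost without prolonged control 2 or 3 or acute control 4, and that of Krt7 without acute control 3, with adjusted p up to 0.113 and 0.119. Clu was also lost when length was centred (0.0546) and with limma-voom (0.111). Anxa1, Clu and Msln are also made by stromal, leukocyte or mesothelial cells, and their level was highest in acute control 2 (Anxa1 6.52, Clu 10.6 CPM) or in acute control 4 (Msln 4.71 CPM).

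The largest rise was in Fkbp5, which encodes a co-chaperone of the glucocorticoid receptor. It lay at 52.3, 19.1, 24.9, 47.6 and 82.5 CPM in acute controls and at 179, 166 and 184 CPM in prolonged controls (2.12 ± 0.37, adjusted p = 0.00863). Zbtb16, a transcription factor, lay at 0.903, 0.339, 0.518, 0.636 and 1.59 CPM and at 7.59, 5.67 and 4.54 CPM (1.96 ± 0.22, adjusted p = 0.00182). Both genes had their highest acute control value in control 5, and both are textbook targets of the glucocorticoid receptor. Of 4 further such genes, picked after the values of Fkbp5 were seen, limma called 0: Tsc22d3 averaged 80.5 and 79.6 CPM, Klf9 46.4 and 41.4 CPM, Per1 33.8 and 32.2 CPM, and Sgk1 123 and 166 CPM. In a model over all 20 libraries, where the spread of the DKO libraries enters, the calls of Fkbp5 and Zbtb16 were lost.

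Fkbp5 also split the acute DKO libraries. It lay at 21.5 and 32.7 CPM in acute DKO 5 and 6 and at 272 to 480 CPM in the other 5, and at 255 to 656 CPM in prolonged DKO libraries. Zbtb16 had the same 2 libraries low, at 1.01 and 1.05 CPM, and the other 5 at 14.0 to 54.4 CPM. The DKO difference of neither gene passed the test (1.24 and 1.21, adjusted p = 0.255 and 0.297).

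Uptake and mucin genes were among the other rises, and the 2 leading ones are also expressed in kidney tubules. Slc5a12, a sodium-coupled monocarboxylate transporter, lay at 140, 55.2, 100, 117 and 203 CPM in acute controls and at 239, 388 and 327 CPM in prolonged controls (1.46 ± 0.33, adjusted p = 0.0207). Cubn, the uptake receptor cubilin, lay at 52.9, 114, 76.1, 93.0 and 66.5 CPM and at 144, 329 and 196 CPM (1.42 ± 0.27, adjusted p = 0.0114). Prolonged control 2 was highest in both genes. The Slc5a12 call was lost without prolonged control 2 or 3 (adjusted p up to 0.0966), and that of Cubn without prolonged control 2 (0.0503). Muc4, a membrane mucin, rose from 101 ± 16.5 to 232 ± 35.6 CPM (1.19, adjusted p = 0.00146), and Hpgd, which degrades prostaglandins, from 160 ± 24.7 to 290 ± 35.9 CPM (0.87, adjusted p = 0.0036). G6pc, the last enzyme of glucose release, averaged 30.0 and 59.3 CPM (0.98, adjusted p = 0.00968, and 0.0515 without prolonged control 2). Acacb, which makes malonyl-CoA, averaged 15.9 ± 4.4 and 32.4 ± 13.2 CPM (0.97, adjusted p = 0.0494), and that call was lost in 6 of 8 fits without 1 control (all but acute 1 and 5, up to 0.152). Acacb was also lost when length was centred (0.121).

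**Figure D4:**
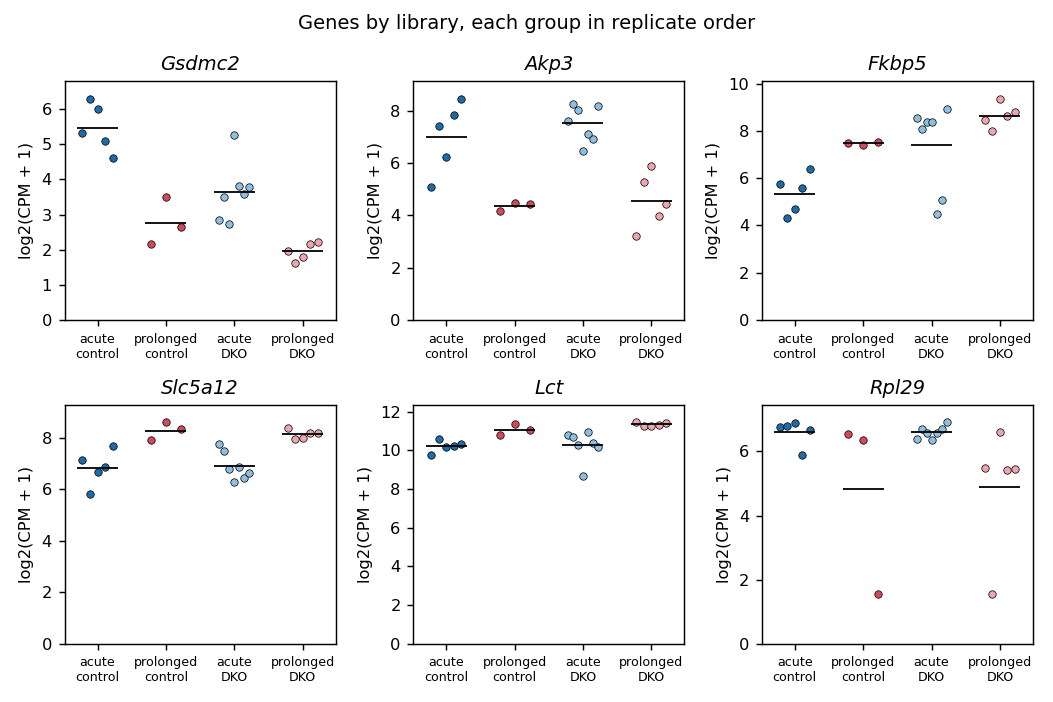
Levels of 6 genes as log2(CPM + 1) in every library (points in replicate order) of the 4 groups, with the group mean as a line. Gsdmc2 and Akp3 are lower, and Fkbp5, Slc5a12 and Lct higher, in every prolonged control than in every acute control, and Rpl29 drops to 1.92 CPM in prolonged control 3 and in prolonged DKO 2.

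Of 18 brush border genes, 2 were higher (Mgam and Lct) and 1 lower (Akp3), with a median of 0.30, against 2.73% higher and 7.81% lower among all genes. At an unadjusted p under 0.05, 10 were higher and 1 lower, against 3768 of all 13574 genes in either direction. With edgeR 2 were higher and with DESeq2 8, each with 1 lower. Among all genes, edgeR called 698 higher with TMM and 663 with relative log expression factors, and DESeq2 980. Mgam encodes maltase-glucoamylase and Lct lactase, which digest starch fragments and milk sugar, and Akp3 an intestinal alkaline phosphatase. The RefSeq promoters of these 3 genes on build GRCm38.p6, from 250 bases before to 50 after the start of the gene, are shown to set the called hydrolases side by side. Each is written 5′ to 3′ on the strand of the gene, with AGATAA or its reverse complement TTATCT in capitals, the letters bound by GATA factors, which are active in the jejunum.

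Lct (chr1:128328269-128328568, minus strand): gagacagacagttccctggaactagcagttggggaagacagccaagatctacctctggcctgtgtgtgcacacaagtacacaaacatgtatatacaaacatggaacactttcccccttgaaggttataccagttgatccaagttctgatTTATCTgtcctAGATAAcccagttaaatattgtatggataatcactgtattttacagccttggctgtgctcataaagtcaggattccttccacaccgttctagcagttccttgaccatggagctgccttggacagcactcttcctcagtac

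Mgam (chr6:40628581-40628880, plus strand): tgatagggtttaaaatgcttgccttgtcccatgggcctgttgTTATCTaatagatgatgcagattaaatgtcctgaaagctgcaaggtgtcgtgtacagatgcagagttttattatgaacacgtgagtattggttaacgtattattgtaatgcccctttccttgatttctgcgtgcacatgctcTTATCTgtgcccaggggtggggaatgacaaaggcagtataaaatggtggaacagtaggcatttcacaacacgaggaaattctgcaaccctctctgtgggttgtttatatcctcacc

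Akp3 (chr1:87124704-87125003, plus strand): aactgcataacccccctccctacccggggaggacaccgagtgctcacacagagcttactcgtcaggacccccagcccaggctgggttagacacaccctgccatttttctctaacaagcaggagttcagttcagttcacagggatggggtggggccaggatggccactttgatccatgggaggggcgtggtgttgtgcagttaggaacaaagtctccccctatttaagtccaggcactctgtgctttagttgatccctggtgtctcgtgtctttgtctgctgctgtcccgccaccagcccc

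The motif occurred 2 times in the Lct window, 2 times in the Mgam window and 0 times in the Akp3 window. It was chosen after the calls were known. Either strand held it in 11.2% of 32851 promoters of the same length and in 4 of the 14 brush border genes with a promoter in the table. A match is only a run of letters, and the files hold no binding data.

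Lct lay at 863, 1550, 1140, 1170 and 1280 CPM in acute controls and at 1780, 2590 and 2150 CPM in prolonged controls (0.86 ± 0.17, adjusted p = 0.0137). Mgam averaged 1580 ± 355 and 3090 ± 373 CPM (0.99 ± 0.18, adjusted p = 0.00948). Akp3 went the other way, at 33.0, 171, 73.7, 229 and 349 CPM in acute controls and 16.7, 21.2 and 20.4 CPM in prolonged controls (-2.66 ± 0.60, adjusted p = 0.0215). These calls rested on few libraries. The Mgam call was lost without prolonged control 3 (0.0535), the Lct call without prolonged control 2 or 3 (up to 0.0714), and the Akp3 call without any 1 of the 3 prolonged controls (up to 0.0805). Lct and Akp3 just missed the threshold when length was centred (0.0539 and 0.0533), and Akp3 missed it with limma-voom (0.0741). Without acute control 2, or without acute control 5, the list had 6 members higher, against 375 and 380 of all genes. Without prolonged control 3 it had 0 in either direction, against 99 higher and 231 lower among all genes. Sis, which encodes sucrase-isomaltase, did not pass (0.78, adjusted p = 0.0579) although its groups did not overlap, at 2730 ± 723 and 4580 ± 770 CPM. In DKO, 5 members were higher and 2 lower, against 9.08% higher and 8.95% lower among all genes.

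Genes of lipid uptake and nutrient transport had calls to the higher side only. Among all genes, 2.73% were higher and 7.81% lower. Of 20 fat absorption genes, 2 were higher: Apob, the protein of chylomicrons, rose from 2930 ± 404 to 5240 ± 521 CPM (0.84, adjusted p = 0.00631), and Npc1l1, the cholesterol importer, from 635 ± 65.1 to 969 ± 218 CPM (0.59, adjusted p = 0.0226). Apoa4 and Apoa1 were not called, at 8160 ± 2200 and 7680 ± 1960 CPM and at 5350 ± 1070 and 5220 ± 718 CPM. Of 16 nutrient transporters, Slc2a2, the basolateral glucose carrier, and Slc7a8, an amino acid carrier, were higher (0.65 and 0.45). The Npc1l1 call was lost in 4 of the 8 fits without 1 control (acute 3 or 4, prolonged 2 or 3, up to 0.094), that of Slc2a2 in 6 (all but acute 5 and prolonged 1, up to 0.181) and that of Slc7a8 without prolonged control 2 (0.0567). When length was centred, Npc1l1 and Slc2a2 were lost too (0.0646 and 0.123), and Slc2a2 was also lost with TMM factors (0.0559).

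Iron genes moved in both directions. Tfrc, the transferrin receptor, lay at 366, 267, 329, 396 and 286 CPM in acute controls and at 579, 468 and 599 CPM in prolonged controls (0.74 ± 0.13, adjusted p = 0.00872). Slc40a1, the iron exporter ferroportin, averaged 27.8 ± 6.38 and 15.9 ± 1.46 CPM (-0.74, adjusted p = 0.0223). Epas1, a hypoxia-responsive transcription factor, averaged 43.5 ± 11.3 and 71.9 ± 8.5 CPM (0.74, adjusted p = 0.0247). These were the 3 calls among 13 iron and hypoxia genes, against 10.5% called among all genes. Each was lost without prolonged control 3 (0.0515, 0.1 and 0.113), Slc40a1 and Epas1 also without prolonged control 2, and Epas1 without acute control 3. When length was centred, Slc40a1 and Epas1 were not called (0.0607 and 0.0713), which left 1 call in the list. S100g, the calcium carrier calbindin, fell by 1.19 (adjusted p = 0.0171, and 0.0856 without prolonged control 3 and 0.0683 when length was centred).

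Of 14 goblet cell genes, 2 were higher and 2 lower, against 2.73% higher and 7.81% lower among all genes. Muc2, the gel-forming mucin, lay at 541, 511, 495, 526 and 352 CPM in acute controls and at 855, 790 and 834 CPM in prolonged controls (0.78 ± 0.13, adjusted p = 0.00605). Fcgbp, a mucus protein bound to it, averaged 3670 ± 355 and 6040 ± 499 CPM (0.72 ± 0.12, adjusted p = 0.00754). Spink4, a trypsin-inhibitor-like peptide, and Tff3, a trefoil peptide, were lower (-0.51 and -0.30, adjusted p = 0.0491 and 0.0243). Muc2 and Fcgbp were called in each fit without 1 control. Spink4 and Tff3 were not (5 and 4 of 8 fits lost the call, among them those without acute control 3 or 4 or prolonged control 2 or 3, and for Spink4 prolonged control 1, up to 0.136 and 0.113). With TMM factors Spink4 and Tff3 were not called (0.0762 and 0.0721). When length was centred, 4 of the 14 were higher and 0 lower, against 1.69% higher and 2.24% lower among all genes. The differences were then 0.88 in Muc2, -0.29 in Spink4 and -0.08 in Tff3.

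Paneth and enteroendocrine genes showed single calls, where 2.73% of all genes were higher and 7.81% lower. Lyz1, the Paneth cell lysozyme, lay at 2110, 3670, 3530, 2800 and 2760 CPM in acute controls and at 4690, 4280 and 4870 CPM in prolonged controls (0.66 ± 0.17, adjusted p = 0.0352), and it was 1 of 8 Paneth genes called. Its call was lost without acute control 4 or any 1 prolonged control (up to 0.137). Of 14 alpha-defensins, only Defa29 was called, rising from 54.5 ± 7.51 to 125 ± 26.7 CPM (1.17, adjusted p = 0.00245), and the list median was -0.05 as deposited and 0.02 with TMM factors. Defensin genes are near-identical copies, and the division of their reads is uncertain. Among 21 enteroendocrine genes, Tph1, which makes serotonin, and Chgb, a granule protein, were higher (0.67 and 0.39, adjusted p = 0.00719 and 0.0264), and 0 were lower. The Chgb call was lost without prolonged control 1 or 3 (up to 0.117). Chga averaged 83.1 ± 6.79 and 94.7 ± 8.87 CPM and was not called. Of 10 tuft cell genes, limma called 0, with 1 lower at an unadjusted p under 0.05, and edgeR and DESeq2 called 0. Dclk1, a tuft cell kinase, averaged 33.6 ± 9.92 and 33.8 ± 1.36 CPM.

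Stem cell and cell cycle genes had few calls, where 2.73% of all genes were higher and 7.81% lower. Lgr5 lay at 21.1, 23.2, 28.2, 23.6 and 20.8 CPM in acute controls and at 21.6, 21.3 and 22.6 CPM in prolonged controls (-0.09 ± 0.11, adjusted p = 0.646). Olfm4, a secreted stem cell marker, averaged 1190 ± 185 and 1310 ± 91.5 CPM. Of 19 stem cell genes, Prom1, which encodes the membrane protein prominin, was called lower (-0.38, adjusted p = 0.0457), and 7 of the 8 fits without 1 control lost that call (all but acute 5, up to 0.181), as did TMM factors (0.0764) and the length-centred fit (0.0865). Of 16 S-phase genes, limma called 0, with 1 higher and 1 lower at an unadjusted p under 0.05; edgeR called 0 and DESeq2 1. Pcna, the replication clamp, averaged 101 ± 8.25 and 88.3 ± 9.0 CPM. Of 14 mitotic genes, Mki67, a proliferation marker, was higher (0.80, adjusted p = 0.0377), with a transcript of 10061 bases. Its call was lost without acute control 4 or 5 or any 1 prolonged control (up to 0.13) and when length was centred (0.0801). In DKO 8 of the 14 were higher, against 9.08% of all genes.

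**Figure D5:**
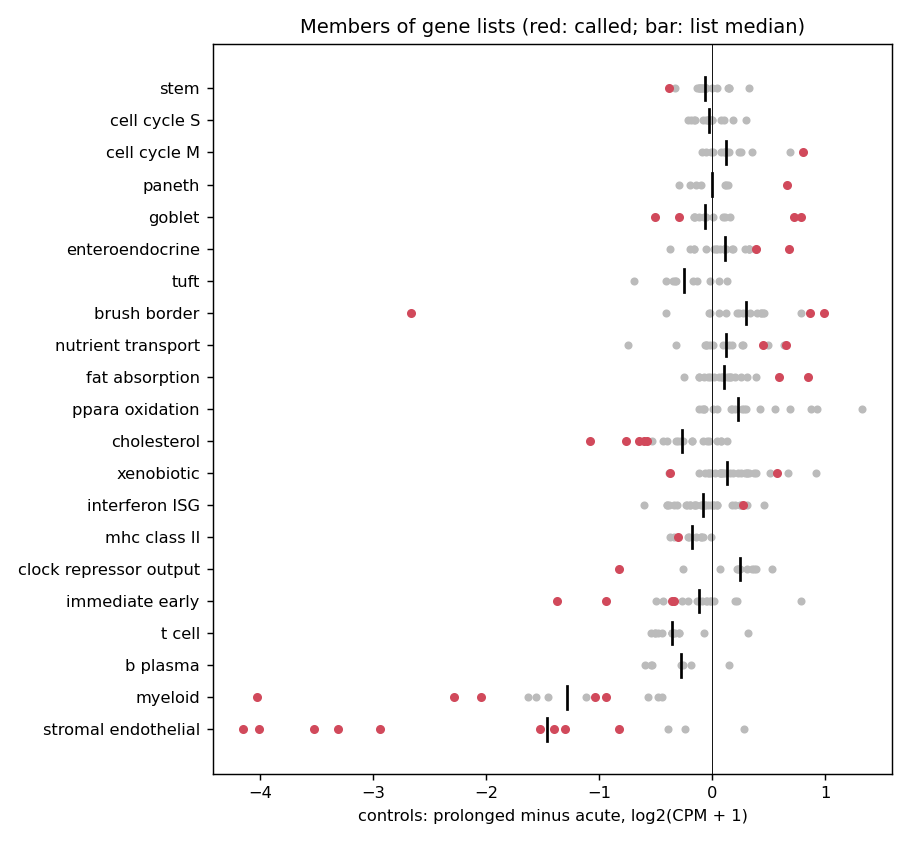
Prolonged minus acute difference of log2(CPM + 1) in controls for the tested members of 21 gene lists, with called genes in red and the list median as a bar. Stromal and myeloid members reach furthest to the left, and the medians of the stem and cell cycle lists lie near 0.

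Of 21 cholesterol genes, 5 were lower and 0 higher, against 7.81% lower among all genes (median -0.27). Pmvk, an enzyme of the mevalonate pathway, lay at 23.2, 20.1, 24.9, 20.5 and 17.7 CPM in acute controls and at 12, 10.6 and 13.5 CPM in prolonged controls (-0.77 ± 0.13, adjusted p = 0.00612). Mvd and Mvk, of the same pathway, had differences of -0.65 and -0.61. Pmvk kept its call in each fit without 1 control. Mvd lost it without acute control 1 or 3 or prolonged control 2 or 3 (up to 0.126) and Mvk without any 1 prolonged control (up to 0.0686). When length was centred, 4 of the list were lower (2.24% of all genes) and Mvd was not called (0.0695). In DKO 7 were lower, against 8.95% of all genes. In fatty acid synthesis, Scd2, a desaturase, fell from 71.0 ± 26.0 to 23.2 ± 4.67 CPM (-1.50, adjusted p = 0.0103), while Fasn, fatty acid synthase, was higher (0.48, adjusted p = 0.0268). Scd2 was lost without prolonged control 2 or 3 (up to 0.0543), and Fasn without acute control 3 or 4 or prolonged control 1 or 3 (up to 0.108) and when length was centred (0.102). Of 18 targets of the fatty acid receptor PPAR-alpha, limma called 0, with a median of 0.23. At an unadjusted p under 0.05, 8 were higher, against 3768 of all 13574 genes in either direction. With edgeR 2 were higher and with DESeq2 6. Among all genes, edgeR called 698 higher with TMM and 663 with relative log expression factors, and DESeq2 980.

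Respiratory chain and ribosomal protein genes were lower in number, and both lists hold short transcripts. Of 77 nuclear-encoded genes of oxidative phosphorylation, 37 were lower and 0 higher, against 7.81% lower among all genes. Their median was -0.22 at a median transcript length of 1088 bases. Uqcr11, a subunit of complex III, lay at 100, 116, 110, 117 and 116 CPM in acute controls and at 73.9, 74.9 and 78.9 CPM in prolonged controls (-0.55 ± 0.07, adjusted p = 0.00245). When length was centred, 4 were lower, against 2.24% of all genes, and the median was -0.02. Of 74 ribosomal protein genes, 26 were lower and 0 higher (median -0.25, median length 1100 bases), with 2 lower when length was centred. With TMM factors the counts were 15 and 20 lower, against 641 of all 13574 genes. Leaving out 1 control gave 12 to 33 and 2 to 30 lower, against 231 to 1422 of all genes. In DKO, 47 genes of oxidative phosphorylation and 1 ribosomal protein gene were lower, against 8.95% of all genes.

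Of 16 stress response genes, 3 were lower (Slc7a11, a cystine carrier, -0.78, and the transcription factors Atf4 -0.51 and Cebpb -0.30) and 0 higher, against 7.81% lower among all genes. Each call was lost without prolonged control 2 or 3, and those of Slc7a11 and Cebpb in 7 of the 8 fits without 1 control (all but acute 5, up to 0.12 and 0.135). When length was centred, Atf4 and Cebpb were not called (0.0731 and 0.244). Of 19 immediate early genes, 4 were lower (Klf2 -1.38, Nr4a1 -0.94, Myc -0.36, Ier2 -0.34) and 0 higher, against 7.81% lower among all genes. The list median was -0.12. When length was centred, all 4 calls were lost (adjusted p = 0.0693 to 0.228). Klf2 is an endothelial and lymphocyte factor and Nr4a1 a nuclear receptor, both at low levels here (3.28 ± 1.98 and 0.508 ± 0.181 CPM for Klf2). Klf2 lay below 0.5 CPM in prolonged control 3 and would not have passed the filter on prolonged controls alone. All 4 calls were lost in 5 or 6 of the 8 fits without 1 control (prolonged controls 2 and 3 and acute controls 3 and 4 among them for each), with adjusted p up to 0.144. Of 30 interferon-stimulated genes, only Ddx58, a sensor of viral RNA, was called (0.27), against 2.73% higher among all genes. Of 18 interferon-gamma-induced genes, Gbp2, a GTPase, and Socs1, a signalling inhibitor, were lower (-1.32 and -0.65), against 7.81% of all genes. Gbp2 lay at 5.46 to 9.55 CPM in acute and 1.31 to 3.97 CPM in prolonged controls, and without prolonged control 2 or 3 its adjusted p was up to 0.0581. Its DKO difference was 0.07, and the interaction did not pass (1.39, adjusted p = 0.875). Bhlhe41, a clock repressor, was called among 12 clock output genes: it lay at 0.212 to 1.29 CPM in acute controls and had no read in the 3 prolonged controls, where 3 reads would be 0.0594 CPM. It thus passed the filter on low values through acute controls alone. The calls of Ddx58 (all but acute 1 and 5), Socs1 (all but acute 2 and prolonged 1) and Bhlhe41 (all but acute 3 and 5) were lost in 6 of the 8 fits without 1 control, with adjusted p up to 0.139, 0.165 and 0.104. Ddx58 and Socs1 were also lost when length was centred (0.0545 and 0.0827).

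Of 10 imprinted genes, 2 were called, against 10.5% of all genes. Igf2r, which clears insulin-like growth factor, rose from 133 ± 8.29 to 204 ± 8.44 CPM (0.62 ± 0.07, adjusted p = 0.00133), and Meg3, a noncoding RNA, averaged 2.26 ± 0.887 and 0.441 ± 0.328 CPM (-1.15, adjusted p = 0.0192, up to 0.0931 without prolonged control 1 or 2). Meg3 reached 0.5 CPM in prolonged control 3 only and would not have passed the filter on prolonged controls alone. Cdkn2b, a cell cycle inhibitor used as a marker of senescence, was lower (117 ± 14.2 and 75.4 ± 6.74 CPM, -0.62 ± 0.10, adjusted p = 0.00507). Igf2r and Cdkn2b stayed called without any 1 control.

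Animals of 1 set varied most in a small group of genes. By the SD of log2(CPM + 1) among genes that averaged at least 20 CPM in the set, the 6 most variable in acute controls were Fn1 (1.86), Arg1 (1.66), Lyz2 (1.63), Ubd (1.45), Akp3 (1.35) and Col3a1 (1.13). Ubd, a ubiquitin-like protein induced by interferon-gamma, lay at 77.1, 6.52, 13.7, 16.5 and 63.4 CPM. Fn1, Arg1, Lyz2 and Col3a1 are the matrix and macrophage genes described above. In prolonged controls the 6 were Rpl29 (2.83), Cyp2c29 (1.92), 2010109I03Rik (1.26), Pck1 (1.10), Wdfy1 (1.04) and Sgk1 (1.02). Rpl29 lay at 91.5, 81.6 and 1.92 CPM, so 1 library lacked nearly all of its reads. Pck1, the key enzyme of glucose synthesis, lay at 178, 795 and 286 CPM, and Cyp2c29, a drug-metabolising enzyme, at 6.82, 111 and 31.4 CPM. Prolonged control 2 was highest in Cyp2c29, Pck1, Wdfy1, Sgk1 and 2010109I03Rik.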

How the data were processed

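RNA-seq was measured in 8 control and 12 DKO libraries. The authors deposited a table per set with CPM for each library, reads per gene divided by the library's total, since all columns have 1 sum. Per the submitters' processing notes, featureCounts 1.6.2, bedtools 2.27.1 and SAMtools 1.9 were used, beside STAR, DESeq2 and FastQC 0.11.5, with build mm9; no role is given. Neither notes nor labels say whether strand was used in counting, so a gene and its antisense or overlapping partner cannot be told apart. Coordinates printed here are of GRCm38.p6 and are not matched to the files. The tables shared 15882 gene symbols after 24 date-like acute rows were dropped.

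Whole reads could be recovered within 0.01 reads in 100% of values. In prolonged control 3 this shows less, since 1 read is worth close to a power of 10 in CPM. Reads in genes ran from 15435118 to 26549494 in acute and from 9914738 to 23181576 in prolonged controls, so 1 CPM is 9.91 to 26.5 reads. Pairs of libraries of 1 group differed by 6.49 to 149 times the sampling variance, and each was counted as a sample.

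Genes with at least 0.5 CPM in at least 3 of the 8 controls were tested with limma 3.58.1 (R 4.3.3, trend) on log2(CPM + 1), a scale that understates changes of low genes. Groups were taken from the labels, with no covariate. The DKO libraries were fitted alone in the same way, and an interaction term was fitted over all 20. Lengths came from GENCODE (97.9% of genes matched by symbol). The length-centred fit subtracted, in each library, the median deviation of each of 20 length bins. Named genes were the 10 largest rises and 10 largest falls among calls without overlap that reach a mean of 5 CPM, up to 4 calls per gene list, the 12 leading genes, the 6 most variable per set, and defining markers. Some genes that this rule names are not reported here. The members and gene lists were chosen with earlier results of these data known. Alternatives were TMM and relative log expression factors, edgeR 4.0.16, DESeq2 1.42.0 and limma-voom on whole reads, other filters and pseudocounts, a replicate block and leaving out each library. On simulated data for the control comparison (13574 genes, 200 changed), 15%, 85% and 98.5% of changed genes were called at folds of 1.5, 2 and 4. Of the unchanged genes, 3, 13 and 18 were called. The simulation gave every gene the same spread beyond sampling and no length trend. These shares may thus be too high for genes that vary more between libraries.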

Additional observations from a re-analysis of the deposited data

Results flagged for a closer look

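The values of 102 genes named above were searched in acute controls, and those of 16 of them, whose DKO libraries are printed or plotted, also in both DKO groups. Of these 134 groups, 13 (9.7%) held a sample far from the others by Dixon's criterion, which chance meets in about 1 of 20 groups. In acute controls, Acacb lay at 8.09 CPM in control 1 against 17.4 to 18.7 in the others, and Chga at 71.4 CPM in control 1 against 83.7 to 87.7. Cdkn2b lay at 141 CPM in control 2 against 107 to 116. In acute control 4, Msln lay at 4.71 CPM against 3.03 to 3.31, and Rpl29 at 58.3 CPM against 101 to 117. Muc2 lay at 352 CPM in acute control 5 against 495 to 541. In acute DKO 4, Gsdmc2 lay at 37.6 CPM against 5.66 to 13, and Gsdmc4 at 106 CPM against 23.8 to 35.8. In acute DKO 3, Col3a1 lay at 257 CPM against 4.34 to 87.9, and Lyz2 at 342 CPM against 3.02 to 147. C3 lay at 17.9 CPM in prolonged DKO 3 against 4.61 to 7.36. Zbtb16 lay at 54.4 CPM in acute DKO 7 against 1.01 to 23. Wdfy1 lay at 37.4 CPM in prolonged DKO 4 against 62.7 to 68.3. No gene named above had a set difference that passed the test of a difference between control and DKO.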

How the results depend on the processing

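The counts of genes higher and lower in prolonged controls (371 and 1060) moved by over 1.5 times with the scaling or tool: limma gave 723 and 641 with TMM and 676 and 632 with relative log expression scaling, edgeR gave 698 and 655 with TMM and 663 and 648 with the other, and limma-voom gave 644 and 491. DESeq2 gave 980 higher. The length-centred fit, added after seeing the data, gave 230 and 304, and its construction removes what follows transcript length. For the others the cause was not tested. Leaving out 1 control gave 99 to 380 higher and 231 to 1422 lower, and leaving out 1 DKO library gave 696 to 1339 and 632 to 1330 in the DKO comparison, with fewer samples in each. The lowest DKO counts came without prolonged DKO 5. Without prolonged DKO 1 the counts were 815 and 745. Genes at 0.5 CPM or more numbered fewer in prolonged controls (difference of means -359, exact permutation p = 0.0893), with -447 to -312 over the fits without 1 control and p = 0.0286 without acute control 5. Of the named values, 0 of 99 called ones changed sign under an alternative, against 22 of 54 that were not called, among them Cyp2c29 (-0.43 to 1.49 without 1 control) and Cd3e (-0.59 to 0.05).

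Replicate numbers are shared between sets. Deviations of same-numbered controls correlated at 0.29, 0.11 and -0.17. Prolonged control 1 correlated best with acute control 1, and prolonged controls 2 and 3 with acute control 5. These few values cannot settle whether the numbers pair the samples, and the main fit took them as unpaired. With a replicate block, the DKO count of lower genes was 584, and the block kept the direction of all 153 named values. Among those values, TMM factors took 13 past the threshold to the side of no call, the length-centred fit 43, limma-voom 32, the model over all 20 libraries 30, and leaving out prolonged control 3 took 55. Depth limits low genes most: the shallowest library has 9.91 reads per CPM. With 3 prolonged controls, changes of 1.5-fold were mostly missed on simulated data (15% called).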

Other observations

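Transcripts of male germ cells appeared in the prolonged set. A list of 18 such genes was picked after seeing the values. All 18 had a row in the prolonged table and 6 in the acute table; no row of either table has fewer than 3 reads. The 6 with a row in both summed to 0.172 to 0.648 CPM in the 5 acute controls and to 3.19, 4.13 and 4.03 CPM in the 3 prolonged controls. They summed to 0.28 to 0.734 CPM in acute DKO and to 3.66 to 5.83 CPM in prolonged DKO libraries. Ldhc, the lactate dehydrogenase of sperm, had 5 reads over the acute and 82 over the prolonged controls, and Crisp2, a sperm protein, had 6 and 39. The protamine gene Prm1 had 3 and 6 reads. All 20 labels say female. The source of these reads was not tested.

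Some genes are listed in 1 table only. Of 1388 genes with a row in the acute table alone, 54 averaged 0.5 CPM or more in acute controls. Mmp12, a macrophage elastase, led them with 8.56, 6.18, 4.99, 2.33 and 0.902 CPM in acute controls 1 to 5. The macrophage genes Clec4d, Clec4e, Chil3, Marco, Trem2 and Acod1 also have a row in the acute table alone, and acute control 5 was lowest in each. The values are not counts of 0 in the prolonged libraries, since a gene without a row has no value there.

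Levels of Rpl29, a ribosomal protein, fell into steps in the prolonged set: 91.5, 81.6 and 1.92 CPM in prolonged controls and 43.8, 1.92, 96.6, 42.2 and 42.7 CPM in prolonged DKO libraries. Acute controls lay between 58.3 and 117 CPM. Wdfy1, an endosomal adaptor, lay at 24.6, 91.2 and 26.1 CPM in prolonged controls, against 81.7 to 90.0 CPM in acute controls, and at 37.4 to 68.3 CPM in prolonged DKO libraries. Neither gene passed the test between control sets (adjusted p = 0.227 and 0.0554, and 9.04e-06 for Wdfy1 without prolonged control 2). The genetic background of the mice was not analysed here.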
